A study of Mus musculus with 24 samples.

Results

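The cholesterol and fatty acid synthesis genes were followed through mouse leukaemia cells with floxed or unfloxed alleles of Arid1b or Arid2, whose proteins belong to SWI/SNF chromatin remodelling complexes. The module was a list of 32 gene symbols covering the mevalonate steps, the steps from squalene to cholesterol, sterol sensing, sterol transport, fatty acid synthesis, and fatty acid elongation and desaturation. Of these, 31 had a row among the 24046 genes of the count table and are the members described here, and Idi1 was not analysed here. All 31 passed the filter on low counts, as did 14099 genes in all.

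Cells make cholesterol from acetyl-CoA, first through the mevalonate pathway to squalene and then through a chain of sterol intermediates. Fatty acids are made from the same acetyl-CoA and are then lengthened and desaturated. Many genes of both routes are transcribed under SREBP factors, which Scap escorts out of the endoplasmic reticulum when sterols are low and which the Insig proteins hold back when sterols are high. Sterol-rich cells turn on LXR targets, which export cholesterol and lower its uptake.

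RNA was sequenced from bone marrow leukaemia cells of moribund recipients of transplanted MLL-AF9 cells, in 4 sets of 3 control and 3 floxed libraries. Every group carried MLL-AF9 and Cre. The controls had unfloxed (+/+) alleles of the gene, and the floxed groups had fl/fl alleles. The VavCre Arid1b set compared Arid1b +/+ VavCre+ with Arid1b fl/fl VavCre+ cells, and the VavCre Arid2 set compared Arid2 +/+ VavCre+ with Arid2 fl/fl VavCre+ cells. The Vav promoter drives Cre throughout the blood system. The other 2 sets carried MxCre, which responds to interferon, and the protocol gives pIpC, an interferon-inducing RNA, as 3 doses of 12.5 µg for each g of mouse, starting 21 days after the transplant. In both MxCre sets the title and the cell type description disagreed: Arid1b is described for the set titled A2, and Arid2 for the set titled A1b. Titles serve here as names alone, with no statement of which gene was deleted. The titles mark the VavCre Arid1b set and both MxCre sets as secondary, and those of the VavCre Arid2 set carry no such mark. Whether transplant generation differed between sets is not stated in the titles. The labels give no age or sex of the animals, and they do not say whether libraries of a group came from separate leukaemias, so p-values measure the spread between these libraries, which may be technical.

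Library totals ran from 12069153 to 38315410 counts, with the VavCre Arid2 set at 28079167 or more. Counts over the whole gene are a weak check of the deletion, since the deleted exons are not known here: Arid1b lay at 186 to 367 CPM (read counts after scaling for library size) in the VavCre Arid1b controls (median 219.6) and at 140 to 184 in the floxed libraries (median 169). Arid2 lay at 218 to 443 CPM in the VavCre Arid2 controls (median 237) and at 197 to 290 CPM in the floxed libraries (median 281), so that the ranges overlapped and the floxed median was the higher. The gene that was not floxed also had a lower floxed median in each VavCre set. Control and floxed medians were 365 and 221 CPM for Arid1b in the VavCre Arid2 set, and 308 and 195 CPM for Arid2 in the VavCre Arid1b set. Ptprc, the pan-leukocyte marker, was at 394 to 790 CPM in all 24 libraries, and Itgam, a myeloid marker, at 262 to 994 CPM. Of the same list of 8 leukaemia and myeloid progenitor markers, Fcgr3 was at 133 to 331 CPM. The rest varied more: Kit at 18.0 to 168 CPM, Meis1 at 32.8 to 157, Hoxa9 at 20.1 to 444, Hoxa10 at 0.391 to 153 and Mpo at 253 to 11198. The 6 adipocyte markers summed to 0.539 to 5.12 CPM, with Plin1 at 0 in 17 libraries. The Y-linked gene Kdm5d was above 10 CPM in all 3 controls and in 0 of 3 floxed libraries of the VavCre Arid1b set, so that sex and genotype cannot be told apart there. It was above 10 CPM in 0 controls and 1 floxed library of the VavCre Arid2 set, in 0 and 3 of the set titled A2, and in 2 and 1 of the set titled A1b. In the set titled A2, too, sex and genotype cannot be told apart. A term for Y-linked reads, used where stated, marks the libraries above 10 CPM. Its size comes only from groups that hold both kinds of library, so not from the VavCre Arid1b set or the set titled A2. The libraries that stood apart were VavCre Arid1b control 3 (chromosome 12 genes 0.53 higher in log2 than in the other controls), floxed 3 of the set titled A2 (erythroid markers at 558 CPM) and floxed 2 of the set titled A1b (a correlation of level with gene length of -0.41, across 13440 genes of 1 library). Erythroid markers also reached 372 CPM in 1 floxed library of the set titled A1b, against at most 49.7 CPM in its controls.

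RefSeq promoter windows (build GRCm38.p6) were found for 24 of the 31 members. None was found for Sqle, Stard4, Scd1, Scd2, Fdps, Fdft1 or Fads1. The 250 bases before each start were searched on both strands for the sterol regulatory element core TCACNCCAC, the E-box CACGTG, the CCAAT box CCAAT and the GC box GGGCGG, each on its own, so that matches may overlap. Windows with no base inside the exons of a gene are shown whole, and others by the stretch free of them. They belong to members that carry the results, the first holding the only TCACNCCAC match among the members' windows. Capitals mark the sterol element core, the E-box and the CCAAT box, which reads ATTGG on the other strand.
Hmgcs1, chr13:119690101-119690350, + strand: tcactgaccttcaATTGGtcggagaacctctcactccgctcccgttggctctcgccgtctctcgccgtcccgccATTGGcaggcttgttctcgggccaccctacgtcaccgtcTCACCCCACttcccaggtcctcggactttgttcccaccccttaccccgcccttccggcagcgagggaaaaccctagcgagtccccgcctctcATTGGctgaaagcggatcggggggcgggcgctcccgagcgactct
Nsdhl, chrX:72918412-72918520, + strand: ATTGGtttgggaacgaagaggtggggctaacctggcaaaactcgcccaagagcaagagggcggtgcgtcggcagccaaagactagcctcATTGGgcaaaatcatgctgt
Hsd17b7, chr1:169969242-169969408, - strand: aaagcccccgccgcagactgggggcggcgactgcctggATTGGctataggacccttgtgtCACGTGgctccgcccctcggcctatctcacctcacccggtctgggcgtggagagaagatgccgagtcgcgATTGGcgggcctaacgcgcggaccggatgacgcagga
Insig1, chr5:28071162-28071362, + strand: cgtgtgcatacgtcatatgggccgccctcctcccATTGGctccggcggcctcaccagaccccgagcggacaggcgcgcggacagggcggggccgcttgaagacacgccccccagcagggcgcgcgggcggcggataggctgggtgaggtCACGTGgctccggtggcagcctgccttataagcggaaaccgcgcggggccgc
Lss, chr10:76531355-76531587, + strand: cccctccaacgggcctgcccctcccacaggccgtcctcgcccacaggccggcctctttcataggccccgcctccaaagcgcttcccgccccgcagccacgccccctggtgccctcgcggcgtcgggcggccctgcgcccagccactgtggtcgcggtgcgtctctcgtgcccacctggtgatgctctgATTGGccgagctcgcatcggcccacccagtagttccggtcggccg
Elovl6, chr3:129532136-129532256, + strand: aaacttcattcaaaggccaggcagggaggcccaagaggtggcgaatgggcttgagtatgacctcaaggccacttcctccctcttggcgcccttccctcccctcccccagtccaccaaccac

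The sterol element core lay 137 bases before the Hmgcs1 start. It was present in 1 of the 24 members with a window and in 1.05% of all 32851 promoter windows. CACGTG was present in 5 members and in 6.02% of all windows, and both Hsd17b7 and Insig1 held it. The CCAAT box was present in 18 members against 33.8% of all windows, and the GC box in 20 members against 32.7%. Several members have more than 1 window, so their shares of windows were 3.125% for TCACNCCAC, 15.6% for CACGTG, 59.4% for CCAAT and 71.9% for GGGCGG. These counts cover whole windows, with any exon bases included. The 121 bases shown for Elovl6 held none of the marked motifs. A match describes letters and not a bound site.

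Members differed widely in level. In reads per kilobase of exon, scaled by library size (RPKM), the highest medians over 24 libraries were those of Acly, which makes cytosolic acetyl-CoA from citrate (65.9), Scd2, a stearoyl-CoA desaturase (35.7), and Fdps, which makes farnesyl diphosphate (24.2). Fasn, the fatty acid synthase, had a median of 23.0 on this scale, and Ebp, a sterol isomerase, 22.1. The squalene-to-cholesterol enzymes Sqle, Hsd17b7 and Lss were at 3.44, 3.15 and 1.58, and Scd1, the desaturase typical of liver and fat, at 0.149. Spread over libraries also differed by gene: the highest library exceeded the lowest 1.81-fold for Hmgcs1, 2.01-fold for Acly and 8.24-fold for Sqle. The same ratio was 16.0 for Elovl6, 28.1 for Stard4 and 233 for Fads2, whose lowest library was at 0.0610 CPM.

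**Figure D1:**
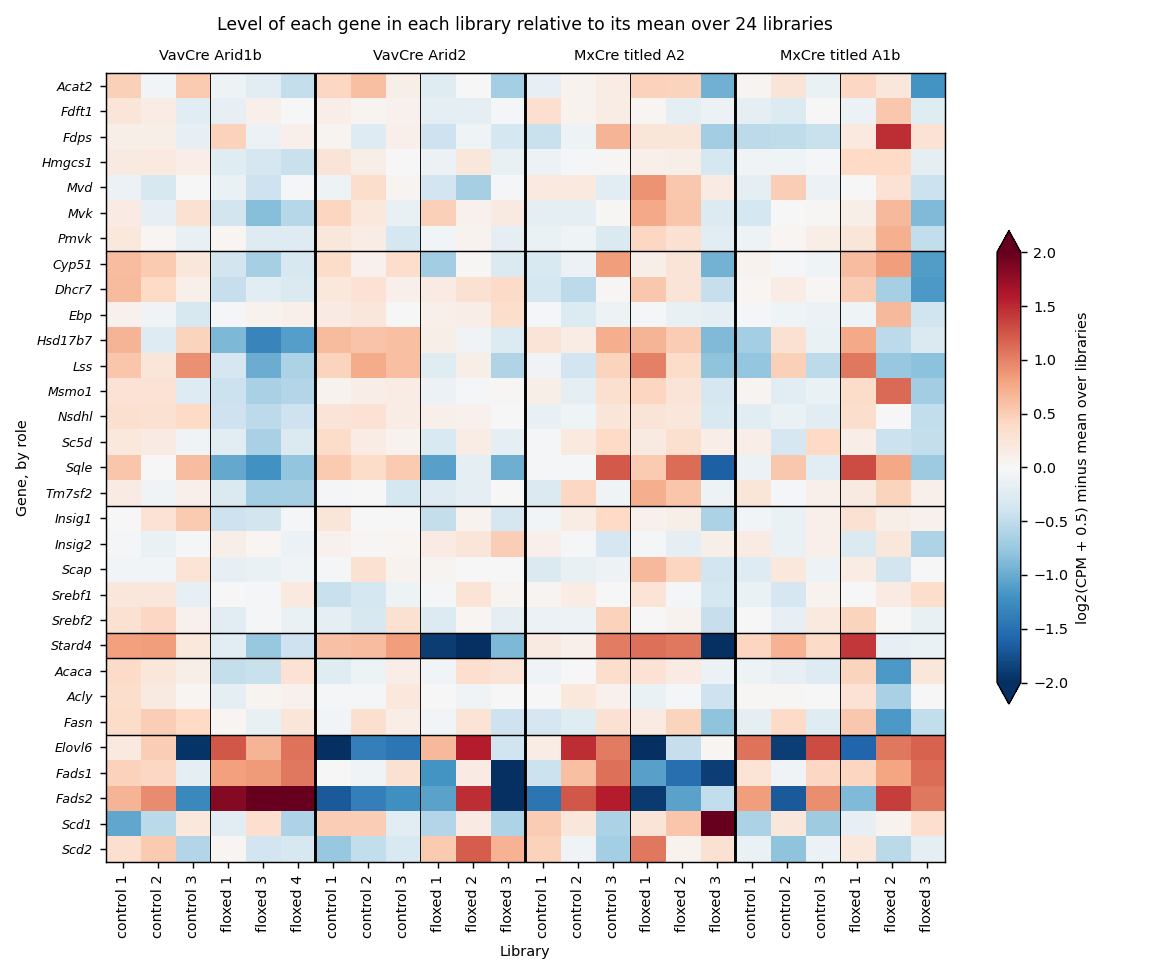
Level of each of the 31 members (rows, separated by role) in each of the 24 libraries (columns, by group), as log2(CPM + 0.5) minus the member's mean over all libraries, on a colour scale from -2 to 2. In the VavCre Arid1b set most rows from squalene to cholesterol are lower in the floxed columns, while Elovl6, Fads1 and Fads2 are higher, and the MxCre floxed columns differ among themselves.

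In the VavCre Arid1b set, the late cholesterol genes Nsdhl and Hsd17b7 fell in the floxed cells. They were the members called at an edgeR adjusted p under 0.05. This count, 2 of 31, was near the 6.57% of all genes called in either direction, while 3.05% were called lower. No member was called higher, against 3.52% of all genes. Of the 31 members, 24 were lower in the floxed group, and the median log2 fold change was -0.40, against -0.06 and 55.1% lower over all tested genes. Floxed libraries lay below every control for 17 members (16.1% of all genes) and above every control for 3 (16.3%). At an unadjusted p under 0.05 there were 12 members, all lower, against 24% of all genes. These are bulk libraries, in which fewer cells of a type and less RNA per cell cannot be told apart.

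Nsdhl, which removes a methyl group at the sterol ring with its partner Msmo1, was at 24.4, 23.9 and 25.7 CPM in the VavCre Arid1b controls and at 14.5, 13.3 and 14.4 CPM in the floxed libraries. The floxed values lay close together and well below every control. The means were 24.7 ± 0.896 and 14.1 ± 0.679 CPM (SD, n = 3 each), and Nsdhl fell by 0.81 ± 0.18 on the log2 scale (SE; 95% interval -1.20 to -0.42), 1.75-fold lower, at an edgeR adjusted p of 0.0174. Hsd17b7, the sterol ketoreductase of the same demethylation, was at 23.7, 12.2 and 20 CPM in the controls and at 7.65, 5.58 and 6.55 CPM in the floxed libraries. All floxed values were below the lowest control, control 2, which stood well under the other controls. Hsd17b7 fell by 1.5 ± 0.39 on the log2 scale (SE; 95% interval -2.31 to -0.68), 2.83-fold lower, at an edgeR adjusted p of 0.0299.

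Both calls depended on single libraries. The edgeR adjusted p of Nsdhl was 0.0725 when control 1 was left out, 0.0553 for control 3, 0.0880 for floxed 3 and 0.0557 for floxed 4. For Hsd17b7 it was 0.128 when control 1 was left out, 0.0815 for control 3, 0.0518 for floxed 1, 0.135 for floxed 3 and 0.0887 for floxed 4. Directions did not change in any of these fits. With a term for libraries with Y-linked reads, Nsdhl, which lies on the X chromosome, was at -0.63 (adjusted p = 0.204) and Hsd17b7 at -1.34 (adjusted p = 0.205), and 0 members were called in this set by edgeR with that term. Without the 3 libraries that stood apart, 4 members were called in it: Hsd17b7, Hmgcs1, Msmo1 and Nsdhl.

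Hmgcs1 and Insig1 had the next smallest p in the VavCre Arid1b set. Hmgcs1, which makes HMG-CoA at the start of the mevalonate pathway, was at 52.6, 53.0 and 51.2 CPM in the controls and at 39.0, 36.8 and 33.9 CPM in the floxed libraries, with no overlap. Its log2 fold change was -0.51 ± 0.15 (edgeR adjusted p = 0.0520). Insig1, the sterol-sensing brake on SREBP processing and itself an SREBP target, was at 36.6, 45.4 and 53.1 CPM against 27.5, 28.5 and 35.9 CPM, the highest floxed value falling just under the lowest control. Its log2 fold change was -0.56 ± 0.20 (adjusted p = 0.0955). Neither passed the threshold.

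By role, 9 of 10 squalene-to-cholesterol genes had floxed libraries wholly below the controls in the VavCre Arid1b set (16.1% of all genes). The exception was Ebp, at 41.7 to 55.1 CPM in controls and 51.1 to 55.6 CPM in floxed libraries. The median log2 fold change of these 10 genes was -0.76. Sqle, which oxidises squalene, was at 28.8, 19.2 and 30.1 CPM in controls and 9.31, 8.06 and 11.1 CPM in floxed libraries. Its separation was wide, but so was its spread over the other groups, and at -1.46 its adjusted p was 0.116. Lss, which closes the first sterol ring system, was at 24.8, 19.8 and 32.0 CPM against 13.2, 8.15 and 10.6 CPM, a log2 fold change of -1.26 (adjusted p = 0.125). Cyp51, the lanosterol demethylase, was at 41.7, 39.2 and 31.7 CPM against 20.9, 16.8 and 21.6 CPM, or -0.93 (adjusted p = 0.158). In all 3 genes the groups did not overlap.

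The other roles moved less evenly in the VavCre Arid1b set. Of the 7 mevalonate genes 6 were lower, with a median of -0.20, and all 3 fatty acid synthesis genes (Acly, Acaca, Fasn) were lower, with a median of -0.37. Of the 5 sensing genes 4 were lower and 3 lay wholly below their controls (16.1% of all genes). Stard4, which carries cholesterol between membranes, was at 37.6, 37.8 and 24.5 CPM in controls and 17.9, 12.2 and 15.6 CPM in floxed libraries, without overlap (-1.13, adjusted p = 0.331). Elongation and desaturation went the other way, with 4 of 5 genes higher, 3 of them without overlap (16.3% of all genes), and a median of 0.68. Fads2, which starts the desaturation of polyunsaturated fatty acids, was at 4.04, 4.97 and 0.660 CPM against 9.59, 14.2 and 12.2 CPM (1.90, adjusted p = 0.354). Fads1, which acts later in that route, was at 26.9, 26.1 and 17 CPM against 34.9, 35.7 and 41.1 CPM (0.68, adjusted p = 0.393). Control 3, one of the libraries that stood apart, had the lowest value of both.

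**Figure D2:**
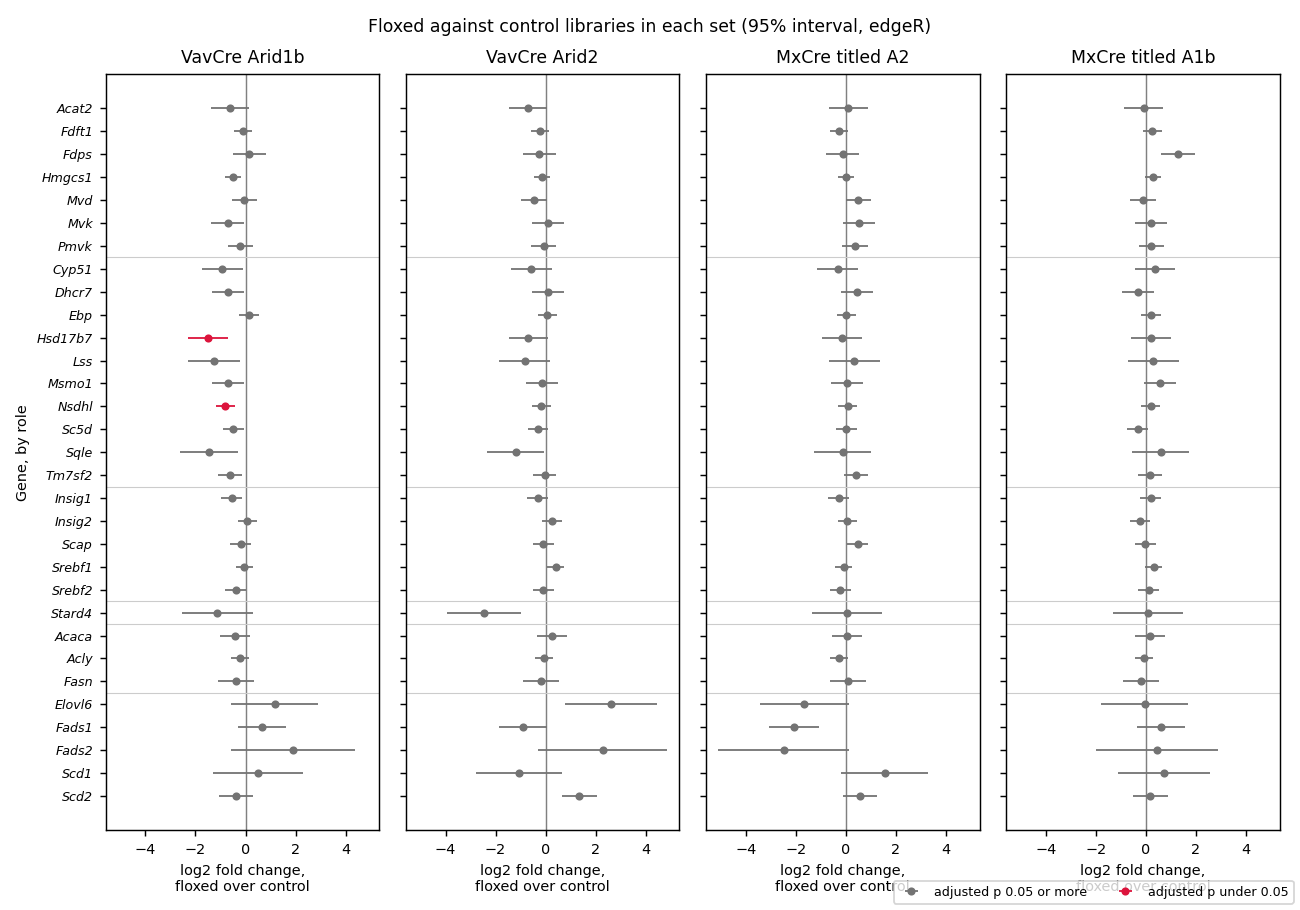
Log2 fold change (floxed over control) of each member with its 95% interval, 1 panel per set, with members at an edgeR adjusted p under 0.05 in red. Nsdhl and Hsd17b7 in the VavCre Arid1b panel are the red points.

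In the VavCre Arid2 set, edgeR called 0 members, against 1.31% of all genes. At an unadjusted p under 0.05 there were 5 members, 3 higher and 2 lower (19.5% of all genes), DESeq2 called 3 (Scd2, Stard4 and Elovl6) and voom 15. Of the 31 members 22 were lower, with a median log2 fold change of -0.15 against 0.00 over all genes. Floxed libraries lay below every control for 9 members (18.2% of all genes) and above for 4 (17.9%).

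The members of smallest p in the VavCre Arid2 set were Scd2, Stard4, Elovl6 and Srebf1. Scd2, which places the first double bond in saturated fatty acids, was at 123, 148 and 168 CPM in controls and 298, 481 and 337 CPM in floxed libraries, each floxed value above each control. Its log2 fold change was 1.35 ± 0.33 (edgeR adjusted p = 0.0509). Stard4 was at 31.8, 32.4 and 37.9 CPM in controls and 5.26, 2.03 and 11.1 CPM in floxed libraries. All floxed values were far below the controls but differed among themselves, and the log2 fold change was -2.48 ± 0.71 (adjusted p = 0.0808). Elovl6, which lengthens palmitate to stearate, was at 1.72, 3.01 and 2.85 CPM in controls and 13.7, 26.5 and 6.41 CPM in floxed libraries. These did not overlap either, and gave 2.62 ± 0.88 (adjusted p = 0.119). Srebf1, the SREBP gene tied mainly to fatty acid synthesis, was at 86.6, 92.4 and 110.2 CPM against 115, 143 and 123 CPM, or 0.40 ± 0.16 (adjusted p = 0.187). Without the 3 libraries that stood apart, none of which is in this set, edgeR called Scd2 and Stard4.

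Among the sterol steps of the VavCre Arid2 set, 8 of 10 squalene-to-cholesterol genes were lower, with a median of -0.24. Of these, 6 were without overlap (18.2% of all genes). The mevalonate genes were lower in 6 of 7, with a median of -0.23. Hsd17b7 was at 22.9, 21.9 and 22.4 CPM in controls and 15.9, 13.8 and 12.1 CPM in floxed libraries. Nsdhl was at 23.3, 23.7 and 21.7 CPM against 20.8, 20.6 and 19.5 CPM, a smaller gap than in the VavCre Arid1b set but again without overlap. Sqle was at 28.0, 25.1 and 28.0 CPM against 8.85, 17 and 9.64 CPM (-1.19 ± 0.55, adjusted p = 0.236). The difference of the floxed effect between both VavCre sets was called by edgeR for 0 members, against 0.0142% of all genes.

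**Figure D3:**
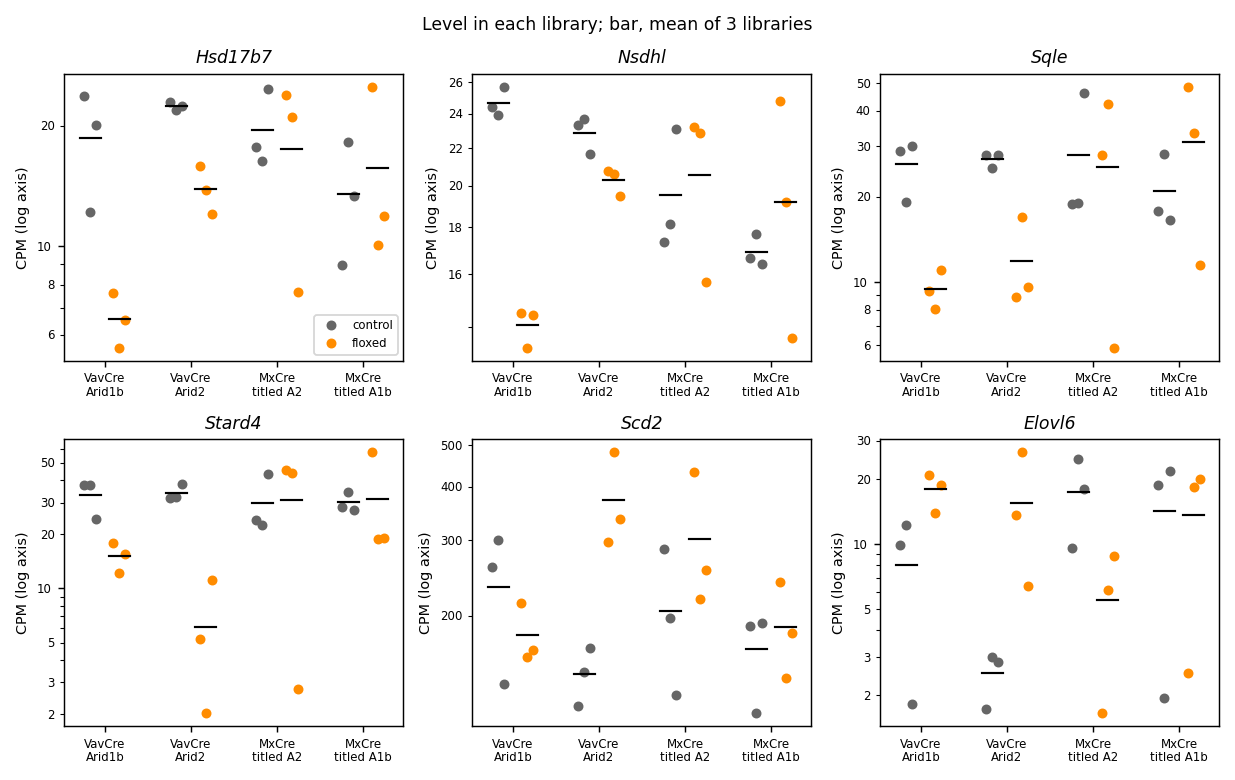
CPM on a log axis in each library for Hsd17b7, Nsdhl, Sqle, Stard4, Scd2 and Elovl6, with control libraries in grey, floxed libraries in orange and a bar at each group mean. Orange points of Hsd17b7, Nsdhl, Sqle and Stard4 lie below the grey points in both VavCre sets, and in the MxCre sets the groups of these 4 genes overlap.

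The VavCre sets share no controls. Of the 31 members 19 were lower in both (61.3%), against 35.8% of all genes, and 8 had floxed libraries below every control in both (Acat2, Sqle, Lss, Cyp51, Msmo1, Nsdhl, Hsd17b7 and Stard4), against 6.42% of all genes. Of the 17 sterol synthesis steps 13 were lower in both and 7 lay below in both. Elovl6 lay above every control in both, the single such member, against 6.1% of all genes.

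For the mean effect over both VavCre sets, edgeR called 8 members, 7 lower (8.53% of all genes were called lower) and 1 higher (7.46%), and 16% of all genes were called in either direction. Hsd17b7 fell by 1.09 ± 0.27 on the log2 scale (adjusted p = 0.0139), Nsdhl by 0.49 ± 0.13 (adjusted p = 0.0185) and Stard4 by 1.80 ± 0.49 (adjusted p = 0.0205). Sqle fell by 1.33 ± 0.39 (adjusted p = 0.0290), Insig1 by 0.44 ± 0.14 (adjusted p = 0.0407), Lss by 1.05 ± 0.35 (adjusted p = 0.0458) and Hmgcs1 by 0.33 ± 0.11 (adjusted p = 0.0476). Elovl6 rose by 1.89 ± 0.60 (adjusted p = 0.0409). The remaining values by library in the VavCre Arid2 set were 55.6, 50.5 and 46.8 CPM in controls and 42.6, 54.4 and 41.8 CPM in floxed libraries for Hmgcs1, which overlapped. Insig1 there was at 43.6, 37.2 and 37.2 against 26.5, 38.7 and 29.1 CPM, also overlapping, and Lss at 23.0, 28.2 and 25.7 against 14.0, 18.3 and 10.8 CPM, without overlap. Elovl6 in the VavCre Arid1b set was at 9.91, 12.3 and 1.83 CPM in controls and 20.9, 14.0 and 18.9 CPM in floxed libraries, without overlap.

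By role, all 7 mevalonate genes and 9 of 10 squalene-to-cholesterol genes were lower in the VavCre mean, with medians of -0.25 and -0.46, against -0.03 over all genes. At an unadjusted p under 0.05 there were 14 of the 31 members, 11 lower and 3 higher, against 31.9% of all genes. When each of the 12 VavCre libraries was left out in turn, Hsd17b7 kept its call in 12 of 12 fits. Nsdhl lost it without VavCre Arid1b floxed 3 (adjusted p = 0.0502), and Stard4 lost it without that library (adjusted p = 0.0559) and without VavCre Arid2 floxed 2 (adjusted p = 0.0505). The others lost it more often: Sqle in 8 fits, Insig1 in 9, Hmgcs1 and Elovl6 in 10 and Lss in 11. With a term for Y-linked reads, Hsd17b7 (adjusted p = 0.0319), Stard4 (0.0467), Nsdhl (0.0497) and Elovl6 (0.0376) were called by edgeR and the other 4 were not.

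Markers of other states also differed, not always alike in both VavCre sets. The 8 cell cycle genes summed to 2947 to 3402 CPM in VavCre Arid1b controls and 2383 to 2798 CPM in floxed libraries, and to 3152 to 3319 and 2248 to 2771 CPM in the VavCre Arid2 set. All 8 were lower in each set, and edgeR called 0 of them. The 8 genes of granulocytic maturation summed to 556 to 1870 CPM in VavCre Arid1b controls and 195 to 1606 CPM in floxed libraries. In the VavCre Arid2 set they summed to 3883 to 8980 and 150 to 858 CPM, 7 of 8 being lower and 1 called (1.31% of all genes). For the VavCre mean 3 of 8 were called lower (8.53% of all genes). The 7 monocyte and macrophage genes summed to 180 to 511 CPM in VavCre Arid1b controls and 477 to 1160 CPM in floxed libraries, 5 being higher. In the VavCre Arid2 set 4 of 7 were lower and 3 higher. For the VavCre mean 4 were higher and 3 lower, and 2 of 7 were called higher (7.46% of all genes). The 7 erythroid genes summed to 1.88 to 3.15 CPM in VavCre Arid1b controls and 6.43 to 22.2 CPM in floxed libraries, 6 of 7 being higher and 0 called. In the VavCre Arid2 set 6 of 7 were lower and 0 called. The 5 B lineage genes summed to 22.6 to 31.1 CPM in VavCre Arid2 controls and 2.44 to 5.78 CPM in floxed libraries, all 5 being lower and 1 called. In the VavCre Arid1b set 3 of 5 were higher, 2 lower and 0 called. Of the 8 leukaemia and myeloid progenitor genes, 6 were lower and 2 higher in each VavCre set. In the VavCre Arid1b set 1 was called lower (3.05% of all genes), and in the VavCre Arid2 set 0 were called. For the VavCre mean 5 were lower and 3 higher, and 1 was called lower (8.53% of all genes). The part of these markers in the lower sterol genes was not tested.

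In the MxCre set titled A2, edgeR called 0 members, against 0.0284% of all genes. At an unadjusted p under 0.05 there were 2, against 10.6% of all genes, while DESeq2 called 1 (Fads1) and voom 5. Of the 31 members 19 were higher, with a median log2 fold change of 0.03 against 0.02 over all genes. Floxed libraries lay below every control for 4 members (7.78% of all genes) and above for 0 (7.18%).

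Fads1 had the smallest p of the set titled A2, at 14.3, 29.8 and 42.3 CPM in controls and 8.94, 6.56 and 4.92 CPM in floxed libraries. Each floxed value was below the lowest control, although the controls themselves spread widely. The log2 fold change was -2.08 ± 0.48 (edgeR adjusted p = 0.210). Scap, the SREBP escort, was at 83.4, 92.0 and 95 CPM against 159.7, 138 and 78.0 CPM, with floxed 3 below the controls and the other floxed libraries above them (0.47 ± 0.20, adjusted p = 0.401). Mvd, which makes isopentenyl diphosphate, was at 24.1, 23.9 and 17.7 CPM against 39.1, 30.4 and 23.4 CPM, with floxed 3 again the lowest of its group and within the control range (0.50 ± 0.24, adjusted p = 0.483). Fads2 was at 0.531, 6.23 and 7.90 CPM against 0.251, 0.847 and 1.52 CPM, which overlapped through control 1 (-2.49 ± 1.24, adjusted p = 0.493). Without the 3 libraries that stood apart, floxed 3 of this set among them, edgeR called Scap.

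The floxed 3 library of the set titled A2 set much of the spread there. Stard4 was at 23.9, 22.5 and 43.0 CPM in controls and at 45.8, 44.0 and 2.77 CPM in floxed libraries 1, 2 and 3. Sqle was at 18.8, 19 and 46.2 CPM in controls and at 28.1, 42.4 and 5.89 CPM in floxed libraries, the last being floxed 3. This library also held the 558 CPM of erythroid markers, whose part in its sterol genes was not tested. The roles of this set were mixed, with 5 of 7 mevalonate and 7 of 10 squalene-to-cholesterol genes higher (medians 0.09 and 0.04) and 3 of 5 elongation and desaturation genes lower (median -1.66).

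In the MxCre set titled A1b, edgeR called 0 members, against 0.00709% of all genes. There was 1 member at an unadjusted p under 0.05, against 17.4% of all genes, while DESeq2 called 1 (Fdps) and voom 0. Of the 31 members 22 were higher, with a median of 0.19 against 0.01 over all genes. Floxed libraries lay above every control for 2 members (6.55% of all genes) and below for 0 (7.55%).

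Fdps, at the branch of the mevalonate pathway toward sterols and prenyl groups, was at 71.5, 72.3 and 75.5 CPM in the controls of the set titled A1b and at 118, 286 and 126 CPM in the floxed libraries. The floxed values did not overlap the tight controls, and floxed 2 was the highest of all. The log2 fold change was 1.27 ± 0.32 (edgeR adjusted p = 0.101). Without floxed 1 of this set, Fdps was called at 1.49 (adjusted p = 0.0124), as was Dhcr7, the last enzyme of cholesterol synthesis by one route, at -0.98 (adjusted p = 0.0194). Without floxed 2, which stood apart, Fdps was at 0.74 (adjusted p = 0.368). Hmgcs1 was at 44.4, 43.9 and 45.1 CPM against 61.2, 61.6 and 40.5 CPM, with floxed 3 below the controls (log2 fold change 0.29, adjusted p = 0.334). Msmo1, the sterol methyl oxidase, was at 23.9, 19.7 and 20.8 CPM against 29.8, 51.0 and 14.0 CPM (0.56, adjusted p = 0.346), floxed 3 again being lowest. Srebf1 was at 108, 93.9 and 124 CPM against 118, 133 and 151 CPM, which overlapped (0.30, adjusted p = 0.347).

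The floxed libraries of the set titled A1b spanned the widest range of sterol levels. The median deviation of the 17 sterol synthesis genes from their mean over 24 libraries (log2) was -0.51 in floxed 3 and 0.46 in floxed 2, while the controls lay at -0.11 to -0.04. Floxed 3 was the lowest of all 24 libraries for 7 of the 17 genes, and floxed 2 was the highest for 7. The same median was 0.11 to 0.24 in the VavCre Arid1b controls and -0.54 to -0.29 in the floxed libraries, and 0.10 to 0.26 and -0.18 to 0.03 in the VavCre Arid2 set. In the set titled A2 it was -0.11 to 0.16 in controls and -0.34 to 0.43 in floxed libraries. The floxed libraries thus lay below their controls in both VavCre sets and on both sides of them in both MxCre sets. A floxed library of the set titled A1b held 372 CPM of erythroid markers, whose part in its sterol genes was not tested.

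The floxed effects of the 4 sets were compared in 6 pairs. The VavCre Arid1b effect differed from that of the MxCre set titled A2 for Fads1 and Nsdhl, 2 members of 31 against 7.35% of all genes. For Fads1 the log2 effects were 0.68 and -2.08, and their difference was 2.75 ± 0.66 (95% interval 1.38 to 4.13, edgeR adjusted p = 0.0202). For Nsdhl they were -0.81 and 0.07, and the difference was -0.89 ± 0.26 (95% interval -1.43 to -0.34, adjusted p = 0.0449). Leaving out 1 library at a time kept the Fads1 call in 24 of 24 fits and lost the Nsdhl call in 10 of 24. With a term for Y-linked reads the adjusted p was 0.0888 for Fads1 and 0.608 for Nsdhl. Nsdhl in the set titled A2 was at 17.4, 18.2 and 23.1 CPM in controls and 23.2, 22.8 and 15.7 CPM in floxed libraries, which overlapped. The next members of this pair were Tm7sf2, a sterol reductase (difference -1.03, adjusted p = 0.0541), and Mvk, mevalonate kinase (-1.25, adjusted p = 0.0819). Tm7sf2 was at 15.8, 13.4 and 15.2 against 11.5, 8.59 and 8.65 CPM in the VavCre Arid1b set, without overlap, and at 11.4, 19 and 13.3 against 23.7, 21.0 and 13.1 CPM in the set titled A2, with overlap. For Mvk the values were 20, 15.9 and 22.2 against 13.7, 9.74 and 11.9 CPM, and 15.8, 15.7 and 18.3 against 30.5, 26.5 and 14.7 CPM, again apart in the first set and overlapping in the second.

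The other 5 pairs had 0 members called by edgeR, with all-gene shares of 0.0142% for the VavCre sets, 0.745% for VavCre Arid1b minus the set titled A1b, 0.489% and 1.5% for VavCre Arid2 minus the sets titled A2 and A1b, and 0.192% for the MxCre sets. At an unadjusted p under 0.05 they had 3, 11, 6, 6 and 3 members in that order, against 9.85%, 19.7%, 18.6%, 22.6% and 17.6% of all genes. Over all 6 pairs DESeq2 called 13 member differences and voom 40. Between the VavCre sets the smallest p was that of Scd2 (-1.72, adjusted p = 0.179), whose effects were -0.37 in the Arid1b set, with controls at 259.6, 301 and 139 CPM and floxed libraries at 214, 160.4 and 166 CPM, and 1.35 in the Arid2 set. Nsdhl (-0.64, adjusted p = 0.394), Fads1 (1.57, adjusted p = 0.398) and Srebf1 (-0.45, adjusted p = 0.548) followed. Fads1 in the VavCre Arid2 set was at 19.6, 18.5 and 24.2 CPM in controls and 8.28, 21.8 and 3.42 CPM in floxed libraries, and Srebf1 in the VavCre Arid1b set was at 139, 139 and 105 against 119, 116 and 136 CPM. Both overlapped.

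VavCre Arid1b minus the set titled A1b had Nsdhl (-0.99, adjusted p = 0.0710), Hmgcs1 (-0.81, adjusted p = 0.0758), Hsd17b7 (-1.71, adjusted p = 0.116) and Msmo1 (-1.25, adjusted p = 0.141) foremost. In the set titled A1b, Nsdhl was at 16.7, 17.7 and 16.4 CPM in controls and 24.8, 19.2 and 13.6 CPM in floxed libraries, and Hsd17b7 at 8.99, 18.2 and 13.4 against 25.0, 10.1 and 11.9 CPM. Both overlapped there, through floxed 3 for Nsdhl. Msmo1 in the VavCre Arid1b set was at 28.1, 28.1 and 19.1 against 16.9, 14.5 and 15.1 CPM, without overlap.

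VavCre Arid2 minus the set titled A2 had Elovl6 (4.28, adjusted p = 0.0974), Mvd (-0.96, adjusted p = 0.163), Fads2 (4.77, adjusted p = 0.170) and Stard4 (-2.53, adjusted p = 0.182) foremost. Elovl6 in the set titled A2 was at 9.60, 24.7 and 18.1 CPM in controls and 1.66, 6.11 and 8.80 CPM in floxed libraries, below every control and so opposite to both VavCre sets. Mvd in the VavCre Arid2 set was at 19.3, 26.9 and 21.7 against 15.9, 13.0 and 20.5 CPM, and Fads2 at 0.391, 0.603 and 0.713 against 0.859, 7.38 and 0.0610 CPM. Both overlapped.

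VavCre Arid2 minus the set titled A1b had Fdps (-1.53, adjusted p = 0.0737), Stard4 (-2.55, adjusted p = 0.136), Scd2 (1.17, adjusted p = 0.154) and Fads1 (-1.50, adjusted p = 0.185) foremost. Fdps in the VavCre Arid2 set was at 107, 85.6 and 111 against 77.5, 96.7 and 80.8 CPM, which overlapped. Stard4 in the set titled A1b was at 28.5, 34.4 and 27.4 against 57.1, 18.8 and 19.1 CPM, with Scd2 there at 189.5, 119 and 193 against 240.1, 143 and 182 CPM and Fads1 at 23.6, 18.6 and 26.0 against 26.5, 34.2 and 42.8 CPM. Of these 3, Fads1 alone had floxed libraries above every control.

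The MxCre sets differed most in Fads1 (titled A2 minus titled A1b -2.68, adjusted p = 0.0756), Fdps (-1.40, adjusted p = 0.135), Fdft1, the squalene synthase (-0.53, adjusted p = 0.272), and Mvd (0.62, adjusted p = 0.362). In the set titled A2, Fdps was at 75.7, 95.4 and 165 against 122, 122 and 63.3 CPM, and Fdft1 at 31.6, 26.5 and 28.0 against 25.7, 22.2 and 23.1 CPM, the latter below every control. Fdft1 in the set titled A1b was at 21.9, 20.6 and 25.4 against 23.1, 36.8 and 21.2 CPM, and Mvd at 18.1, 29.5 and 19.3 against 20.7, 25.6 and 15.3 CPM. Both overlapped.

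Control groups were compared with each other as a measure of set-to-set variation. MxCre controls minus VavCre controls gave 0 called members by edgeR (0.00709% of all genes), 2 at an unadjusted p under 0.05 (11.6% of all genes), 0 by DESeq2 and 4 by voom. Of the members 7 were higher and 24 lower, against 50.4% of all genes lower. Elovl6 had a log2 difference of 1.80 ± 0.60 and Nsdhl of -0.39 ± 0.13, both at an adjusted p of 0.384, followed by Lss (-0.68, adjusted p = 0.455) and Hmgcs1 (-0.20, adjusted p = 0.473). Elovl6 was at 9.60, 24.7 and 18.1 CPM in controls of the set titled A2 and at 18.7, 1.95 and 21.9 CPM in those of the set titled A1b, where control 2 alone was near the VavCre Arid2 controls. Lss was at 15.9, 12.7 and 22.9 CPM and at 9.61, 23.4 and 11.5 CPM, and Hmgcs1 in the set titled A2 at 43.0, 45.1 and 47.4 CPM. Cre, pIpC and set went together in this comparison. VavCre Arid2 minus VavCre Arid1b controls also gave 0 called members (0.0426% of all genes), 1 at an unadjusted p under 0.05 (12.5% of all genes), 0 by DESeq2 and 4 by voom. Srebf1 was at -0.41 (adjusted p = 0.314), Scd2 at -0.67, Fads2 at -2.49 and Elovl6 at -1.66 in log2. Elovl6 stood at 1.72 to 3.01 CPM in VavCre Arid2 controls and at 1.83 to 12.3 CPM in VavCre Arid1b controls, which overlapped.

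A list of further genes of sterol uptake, SREBP processing, the non-sterol branch, efflux and fatty acid supply held 41 genes in the count table, of which 40 were tested. In the VavCre Arid1b set edgeR called 3 of them, 1 higher and 2 lower, and 11 had an unadjusted p under 0.05, against 6.57% and 24% of all genes. Acacb, the mitochondrial acetyl-CoA carboxylase, was at 10, 3.14 and 3.25 CPM against 0.661, 0.310 and 0.661 CPM, a fall without overlap from an already low level (-3.32 ± 0.99, adjusted p = 0.0494). Mylip, an LXR target that encodes a ubiquitin ligase, was at 21.6, 34.9 and 29.2 CPM against 61.3, 89.9 and 55.3 CPM, and rose by 1.27 ± 0.34 (adjusted p = 0.0320). Acacb lost its call when any 1 of the 6 libraries was left out (adjusted p of 0.0543 to 0.195). Mylip lost its call when control 1, control 3, floxed 3 or floxed 4 was left out (each in its own fit), and with a term for Y-linked reads its adjusted p was 0.192.

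In the other sets edgeR called 0 of these 40 genes, with 10 at an unadjusted p under 0.05 in the VavCre Arid2 set, 4 in the set titled A2 and 5 in the set titled A1b, against 19.5%, 10.6% and 17.4% of all genes. Mylip in the VavCre Arid2 set was at 42.7, 47.7 and 34.2 CPM against 60.6, 65.0 and 52.9 CPM, without overlap (0.52, adjusted p = 0.403). In the set titled A2, Mylip was at 47.8, 38.5 and 26.8 CPM against 41.2, 28.1 and 64.5 CPM, and in the set titled A1b at 49.2, 47.7 and 61.6 against 28.1, 23.1 and 59.8 CPM. Groups overlapped in both MxCre sets.

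For the VavCre mean edgeR called 7 of the 40 genes, 4 higher and 3 lower, near the 16% of all genes called. Mylip rose by 0.89 ± 0.24 (adjusted p = 0.0181), and lost its call without VavCre Arid1b floxed 3 (adjusted p = 0.0551). A further 5, named after their values were seen, lost their calls in 5 to 12 of the 12 fits with 1 VavCre library left out. Slc25a1, which exports citrate from mitochondria for acetyl-CoA, fell by 0.71 ± 0.20 (adjusted p = 0.0241). Its values were 68.0, 51.6 and 87.5 against 46.2, 34.8 and 43.8 CPM in the VavCre Arid1b set and 81.4, 75.1 and 60.3 against 43.4, 51.8 and 39.8 CPM in the VavCre Arid2 set, below every control in both. Lpcat3, which remodels phospholipids and was listed with Abca1 and Mylip among the efflux and LXR genes, fell by 0.31 (adjusted p = 0.0473). The others of that group were not called: Abcg1 (0.15, adjusted p = 0.757), Nr1h2 (-0.14, adjusted p = 0.318) and Nr1h3 (0.13, adjusted p = 0.867). Abca1, the LXR-driven cholesterol exporter, rose by 2.68 ± 0.81 (adjusted p = 0.0330), Lpin1, a phosphatidate phosphatase, by 0.70 ± 0.22 (adjusted p = 0.0407), and Ggps1, of the non-sterol branch, by 0.34 (adjusted p = 0.0443).

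Abca1 was at 1.40, 1.09 and 1.42 CPM in VavCre Arid1b controls and 8.03, 13.2 and 14.7 CPM in floxed libraries, and at 2.22, 3.65 and 12.3 against 24.8, 33.0 and 23.2 CPM in the VavCre Arid2 set. Each floxed library was above every control of its set. In the set titled A2 it was at 15.8, 9.27 and 1.23 against 2.71, 2.43 and 31.5 CPM, and in the set titled A1b at 5.89, 3.51 and 9.54 against 0.454, 3.47 and 24.6 CPM. The highest Abca1 value in each MxCre set was floxed 3, the library with the lowest floxed values of Sqle in its set. Both VavCre sets went the other way. There the floxed library with the highest Abca1 value (14.7 CPM for Arid1b, 33.0 CPM for Arid2) also had the highest floxed value of Sqle. A link between the levels of both genes was not tested.

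**Figure D4:**
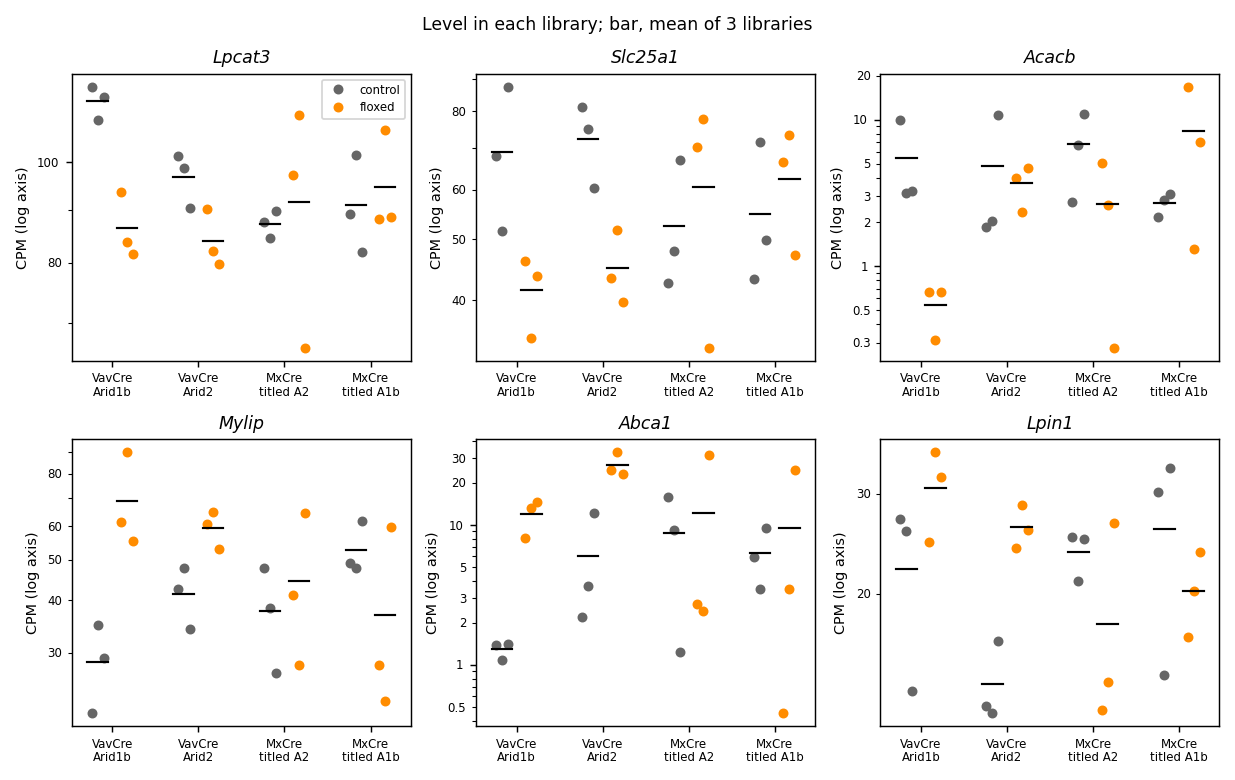
CPM on a log axis in each library for Lpcat3, Slc25a1, Acacb, Mylip, Abca1 and Lpin1, with control libraries in grey, floxed libraries in orange and a bar at each group mean. Lpcat3 and Slc25a1 are lower, and Abca1 and Mylip higher, in the floxed libraries of both VavCre sets, and groups overlap for these 4 genes in the MxCre sets.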

How the data were processed

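RNA was measured in 24 libraries, 3 in each of 8 groups, assigned by title. Per the labels' protocols, polyadenylated RNA from TRIzol extracts was made into directional libraries. STAR and the build mm10 are named in the submitters' processing notes. The sources used here give no read counter, annotation or strand setting. Per the file headers and values, the deposited table holds raw read counts per gene symbol. Members overlapped by another gene are uncertain for that reason: Hmgcs1, Fdps, Fdft1, Lss, Cyp51, Tm7sf2, Srebf1, Elovl6 and Scd2. Among the named genes of the further pathway list, the same holds for Lpcat3, Ggps1 and Nr1h3.

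Counts were analysed with edgeR 4.0.16 in R 4.3.3: filterByExpr (minimum count 10, total 15; 14099 genes kept, 2194 had no read), TMM scaling, and a robust quasi-likelihood fit of 8 group means to all 24 libraries (16 residual degrees of freedom, common biological coefficient of variation 0.4). In each of 13 contrasts, p-values were adjusted by Benjamini-Hochberg over all tested genes, and genes under 0.05 were called. Adjusted p-values are from this test, two-sided, unless another tool is named. CPM are counts scaled with TMM factors, and fold changes (log2) set floxed over control. The fit was run on simulated data with larger planted changes than most member changes here and a smaller spread between libraries. That run does not show how well changes of the sizes reported here are recovered. Replicate libraries differed beyond counting noise.

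DESeq2 1.42.0, voom with sample weights in limma 3.58.1, other scalings and filters, a replicate block, a term for Kdm5d above 10 CPM, and omission of libraries were the alternatives. Exon lengths are from GENCODE M21, and promoter windows from RefSeq. Members called in a contrast, or the 4 of smallest p, are given by library. Called genes of the further pathway list were named likewise, except 1 that is not reported here. The members, lists and tests were chosen with earlier results of these data known.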

Additional observations from a re-analysis of the deposited data

Results flagged for a closer look

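The floxed effect differed between the VavCre Arid1b set and the MxCre set titled A2 for Fads1 and for Nsdhl, by edgeR's test of the difference itself. Such a difference was called for 7.35% of all genes, a share near that among the 31 members. The difference in log2 fold change was 2.75 for Fads1 (adjusted p = 0.0202), which was higher in 3 of 3 VavCre Arid1b floxed libraries than in every control of its set and lower in 3 of 3 floxed libraries of the set titled A2. For Nsdhl it was -0.89 (adjusted p = 0.0449). Kdm5d, a Y-linked gene, was above 10 CPM in all 3 VavCre Arid1b controls and in 0 of the floxed libraries, the reverse of the set titled A2, where 0 controls and 3 floxed libraries were above it. With a term for these libraries the differences were 4.13 (adjusted p = 0.0888) and -0.53 (adjusted p = 0.608).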

How the results depend on the processing

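Counts of called members and of called genes moved with the tool. Main edgeR counts of called genes were 926 (VavCre Arid1b), 185 (VavCre Arid2), 4 (titled A2), 1 (titled A1b) and 2255 (VavCre mean). DESeq2 called 1815 genes in the VavCre Arid1b set, 1095 in the VavCre Arid2 set (3 members), 196 in the set titled A2 (1 member), 478 in the set titled A1b (1 member), and 13 member differences between sets. Voom called 15 members and 4189 genes, 15 and 4679, 5 and 1202, 0 and 12 in the same order, 16 and 5799 for the VavCre mean, 4 members in each control comparison, and 40 member differences. With upper-quartile scaling 3 genes were called in the set titled A1b. Without a filter on low counts the VavCre Arid2 set had 103 genes, the set titled A1b 0, the VavCre mean 4 members, and the differences 1 member. Fitting only the groups compared gave 7 members in the VavCre Arid1b set, 4 members and 1030 genes in the VavCre Arid2 set, 0 genes in the set titled A1b and 3430 for the VavCre mean.

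With a term for Y-linked reads the VavCre Arid1b set had 0 members and 101 genes, the VavCre Arid2 set 104 genes, the set titled A2 0 genes, the set titled A1b 2 genes, the VavCre mean 4 members and the differences 0. Without the 3 libraries that stood apart there were 4 members in the VavCre Arid1b set, 2 members and 1144 genes in the VavCre Arid2 set, 1 member and 33 genes in the set titled A2, 8 genes in the set titled A1b, and 15 member differences. Same-numbered libraries correlated at -0.22 to 0.26 over 11 pairs, 2 of them over 0.1, and 4 of 22 libraries correlated best with their own number, so numbers were not taken as pairs. The fit with the replicate block called 0 members and 1 gene in the VavCre Arid1b set, 3 genes in the VavCre Arid2 set, 1 gene in the set titled A2, 0 members and 172 genes for the VavCre mean, and 0 member differences.

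Leaving out 1 library at a time gave 0 to 2 members and 62 to 734 genes (VavCre Arid1b), 0 members and 15 to 227 genes (VavCre Arid2), 0 members and 0 to 18 genes (titled A2), 0 to 2 members and 0 to 1535 genes (titled A1b), 1 to 6 members and 1132 to 2401 genes (VavCre mean), 0 members in the MxCre against VavCre controls, and 1 to 11 member differences. Signs turned for Msmo1 in the set titled A1b under voom (-0.035, adjusted p = 0.969) and for Fads2 between VavCre controls with the Y-linked term (0.13, adjusted p = 0.999), neither called in any of these fits. The cause of these changes was not tested.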
